A study of Mus musculus with 7 samples.

Results

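The open chromatin of Gfi1 and Gfi1b, a pair of related mouse genes for transcriptional repressors, was examined in HPC7 cells. The members were the open chromatin regions (OCRs) that overlapped the gene body of either gene or the 50 kb on either side of it, in mm10 coordinates with GENCODE M21 gene models. An OCR is a peak of the deposited lists, or the union of the peaks of several libraries where they overlapped by at least 1 bp. There were 40 such OCRs of 144931 in the whole series, 16 around Gfi1 and 24 around Gfi1b. HPC7 cells are an established line of mouse hematopoietic progenitors, grown with stem cell factor, and the line served as the mouse sample in a study that built a nucleus hashing method for single-nuclear ATAC-seq. Bulk ATAC-seq, in which the Tn5 transposase cuts and tags accessible DNA, was performed on 7 libraries, HPC7-1, HPC7-2 and HPC7-4 to HPC7-8, which the study took from separate culture batches. The labels give all 7 the same condition and name no treatment and no genotype besides the line, so the comparisons are between sites within a library and not between groups of samples.

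GFI1 and GFI1B are zinc finger proteins that bind DNA and silence genes by recruiting a lysine demethylase and histone deacetylases through their SNAG domain. GFI1 is known for its roles in hematopoietic stem cells, lymphocytes and neutrophils, and GFI1B for its roles in erythroid cells and megakaryocytes. Each factor can repress its own gene and that of the other, and both genes are controlled in blood progenitors by distal elements that hematopoietic transcription factors bind. The elements looked up here by name were the Gfi1 -35 kb element, taken as 33 to 37 kb upstream of the start site, and the Gfi1b +13 kb and +16/+17 kb elements, taken as 12 to 14 kb and 15 to 18 kb downstream. These windows follow the names of the elements and were not checked against published coordinates, so an OCR is placed in an element here by distance alone.

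The lists held between 84593 and 132852 peaks. Each peak has a fold enrichment, the height at its summit divided by the background of its library, which was the measure of intensity, and the percentile of a peak is the share of its library's peaks with a lower fold enrichment. The reads at a summit were recovered from the fold enrichment, and the background came to between 4.44 and 7.45 reads in 6 libraries and 20.4 reads in HPC7-1, which also had the longest list. The names of the peaks carry the prefix VD in HPC7-1, HPC7-2 and HPC7-4 and EtOH in the other 4 libraries. The labels do not explain these words, so whether the sets were cultured differently cannot be told, and the differences tested had the same direction in both. The promoters of all 6 hematopoietic progenitor markers checked (Ptprc, Kit, Cd34, Gata2, Spi1 and Tal1) held a peak in all 7 libraries, and the promoters of the 7 markers of other cells reported here (Alb, Myod1, Ins2, Krt5, Sftpc, Neurod1 and Cd3e) held none in any.

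Both genes lie on the minus strand. Gfi1 (ENSMUSG00000029275.18) spans chr5:107716657-107726036, and distances were counted from the start of transcript Gfi1-201 at 107724343. Other Gfi1 transcripts start 1462 and 1693 bp further upstream, so that the promoter peak of Gfi1 falls at -1.8 kb on this scale. Gfi1b (ENSMUSG00000026815.14) spans chr2:28609450-28621982, and its distances were counted from the start of Gfi1b-201 at 28621945. The sequences at the summits of the OCRs that the results turn on are given below, 5′ to 3′ on the strand of the gene, from the GRCm38 reference. They are the strongest OCR of each window, the other 2 strong upstream OCRs of Gfi1, the OCR in the +16/+17 kb element, and the bases just before the most upstream start of each gene. Capitals mark matches on either strand to the GATA motif AGATAA, its other form TGATAA, the ETS motif AGGAAG, the RUNX motif TGTGGT, the E-box CAGNTG or the GFI1 core AATCAC.
Gfi1 -34.9 kb (chr5:107759170-107759370): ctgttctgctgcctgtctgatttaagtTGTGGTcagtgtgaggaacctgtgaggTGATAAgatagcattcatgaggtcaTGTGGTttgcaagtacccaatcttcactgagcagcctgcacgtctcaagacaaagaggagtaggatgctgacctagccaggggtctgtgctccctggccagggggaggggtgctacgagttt
Gfi1 -25.4 kb (chr5:107749680-107749880): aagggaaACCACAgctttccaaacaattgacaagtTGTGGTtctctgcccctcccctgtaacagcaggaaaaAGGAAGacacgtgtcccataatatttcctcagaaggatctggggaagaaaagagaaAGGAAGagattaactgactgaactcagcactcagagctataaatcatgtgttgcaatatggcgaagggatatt
Gfi1 -44.2 kb (chr5:107768422-107768622): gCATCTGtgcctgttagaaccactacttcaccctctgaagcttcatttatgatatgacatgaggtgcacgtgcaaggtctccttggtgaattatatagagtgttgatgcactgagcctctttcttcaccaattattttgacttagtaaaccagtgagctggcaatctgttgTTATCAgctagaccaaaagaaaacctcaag
Gfi1b +23.7 kb (chr2:28598188-28598388): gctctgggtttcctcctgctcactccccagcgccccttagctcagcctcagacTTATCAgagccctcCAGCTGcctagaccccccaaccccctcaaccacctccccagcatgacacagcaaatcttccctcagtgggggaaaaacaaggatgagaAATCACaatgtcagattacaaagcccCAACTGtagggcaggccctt
Gfi1b +15.9 kb (chr2:28605986-28606186): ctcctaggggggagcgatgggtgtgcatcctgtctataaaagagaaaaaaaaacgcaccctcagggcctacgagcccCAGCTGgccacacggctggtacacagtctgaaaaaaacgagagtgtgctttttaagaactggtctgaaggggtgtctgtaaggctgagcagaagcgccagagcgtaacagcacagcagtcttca
Gfi1 promoter (chr5:107726037-107726186): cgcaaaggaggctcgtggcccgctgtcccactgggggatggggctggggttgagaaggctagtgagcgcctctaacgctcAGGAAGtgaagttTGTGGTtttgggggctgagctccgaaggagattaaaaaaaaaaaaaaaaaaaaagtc
Gfi1b promoter (chr2:28621983-28622132): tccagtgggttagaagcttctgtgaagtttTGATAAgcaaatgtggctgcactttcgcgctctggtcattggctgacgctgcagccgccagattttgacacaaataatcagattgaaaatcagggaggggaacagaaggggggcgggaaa

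The strongest OCR around Gfi1 lay in the -35 kb element, in an intron of the neighbouring gene Evi5, and it far exceeded the promoter of Gfi1. This OCR, at -34.9 kb (chr5:107758878-107760048), had a peak in all 7 libraries with fold enrichments of 97.1 at the lowest, in HPC7-6, 144 at the median and 179 at the highest, in HPC7-5, for a mean of 139 ± 26.3 (SD, n = 7). Its percentile lay between 97.2 and 98.3, on 620 to 3068 reads at the summit, and the summits of the 7 libraries fell within 5 bp of each other. Counted from the most upstream Gfi1 start, this OCR lay at -33.2 kb, inside the 33 to 37 kb window but near its edge. The promoter OCR of Gfi1 (chr5:107725312-107726362) had its summit 70 bp upstream of the most upstream Gfi1 start, over an exon of A430072P03Rik. A start of that gene also lay within 1 kb of the OCR, which was modest by comparison. Its fold enrichment was 5.57 at the lowest, in HPC7-5, 8.56 at the median and 13.7 at the highest, in HPC7-7, for a mean of 9.24 ± 2.75 (SD, n = 7). HPC7-5, the library with the strongest -34.9 kb peak, had the weakest promoter peak, and the ranges of the 2 sites did not overlap. Within a library, the log10 fold enrichment of the -35 kb element exceeded that of the promoter by 1.19 ± 0.178 (SD), 15.4-fold on average, and it did so in 7 of 7 libraries (two-sided exact sign-flip permutation test over libraries, n = 7, adjusted p = 0.0156, the smallest that 7 libraries can give).

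**Figure D1:**
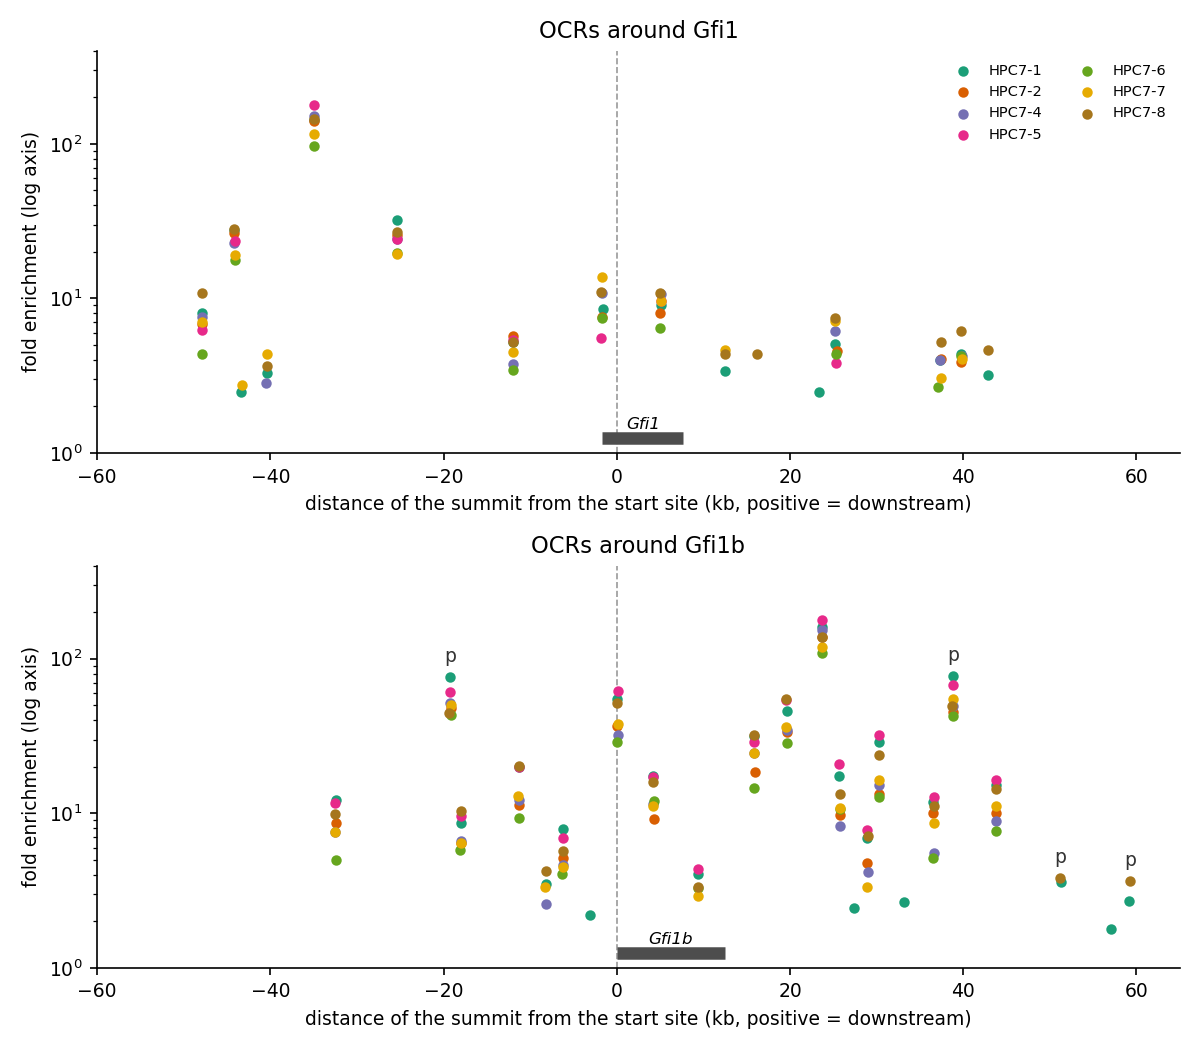
Fold enrichment (log axis) of each OCR of each library against the distance of its summit from the start site in kb, for Gfi1 (top) and Gfi1b (bottom), with 1 point per library, a grey bar for the gene body and p for OCRs at promoters of other protein-coding genes. The points at -34.9 kb of Gfi1 and at +23.7 kb of Gfi1b stand above all others of their windows, with means of 139 and 142.

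A pair of further OCRs upstream of Gfi1, both in introns of Evi5, came next. The OCR at -25.4 kb (chr5:107749236-107750449) ranged from 19.5 to 32.2 with a median of 24.3, and that at -44.2 kb (chr5:107768199-107768795) from 17.7 to 28.1 with a median of 23.5. They were stronger than the promoter OCR in 7 of 7 libraries each, and they did not differ from one another beyond their spread, since the mean difference of 0.998 had an SD of 1.97. The intronic OCR of Gfi1 itself, at +5.0 kb (chr5:107719068-107719544), ranged from 6.41 to 10.8 with a median of 9.57, and was above the promoter in 3 libraries and below it in 4. The OCRs at -47.9, +25.2 and -12.0 kb were also found in all 7 libraries, with mean fold enrichments of 7.26, 5.51 and 4.75. In order of their means, neighbouring OCRs from the promoter down to -12.0 kb differed by less than the larger of their 2 SDs. The OCR at -34.9 kb stood above -25.4 kb, and -44.2 kb above the promoter, by more. That yardstick compares neighbours only and leaves out the pairing by library. Compared within each library, the OCRs at +25.2 and -12.0 kb were below the promoter in 7 of 7 libraries, and that at -47.9 kb in 6. Within a library, the fold enrichment at +5.0 kb exceeded that at -47.9 kb by a mean of 1.90 ± 1.21 (SD). It was the higher in 6 libraries, and the 2 were equal in HPC7-8.

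At Gfi1b the strongest OCR lay downstream of the gene and outside the windows of the elements looked up, whose published positions were not checked. The OCR at +23.7 kb (chr2:28596934-28600631), which is intergenic, had fold enrichments of 108 at the lowest, in HPC7-6, 139 at the median and 178 at the highest, in HPC7-5, for a mean of 142 ± 24.1 (SD, n = 7). Its percentile lay between 97.9 and 98.6, on 692 to 3443 reads at the summit. It was called as 1 unbroken peak of between 3180 and 3698 bp in every library, with the summits within 15 bp of each other. It was 3.36-fold stronger than the Gfi1b promoter on average and stronger in 7 of 7 libraries. Set beside the -34.9 kb OCR of Gfi1, it differed by a log10 fold enrichment of 0.0124 ± 0.0269 (SD, n = 7) and was the higher of the 2 in 4 libraries. It was singled out as the strongest of its window once its values were known, so these differences are given with no test.

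The promoter OCR of Gfi1b (chr2:28620774-28623250), with its summit at +0.1 kb in an annotated UTR of the gene, ranged from 28.9 in HPC7-6 over a median of 37.7 to 61.6 in HPC7-5, for a mean of 43.4 ± 12.6 (SD, n = 7). Its lowest library was above the highest library of the Gfi1 promoter. Within a library the Gfi1b promoter exceeded the Gfi1 promoter by a log10 fold enrichment of 0.673 ± 0.207 (SD), 4.71-fold, in 7 of 7 libraries (two-sided exact sign-flip permutation test, n = 7, adjusted p = 0.0156).

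The +16/+17 kb element of Gfi1b held an OCR with its summit at +15.9 kb (chr2:28605699-28608110). No OCR was called over +17 kb itself, and the next one downstream, at +19.6 kb, began beyond the window of the element. The level of the element was therefore that of the +15.9 kb OCR. Its fold enrichment ranged from 14.5 in HPC7-6 over a median of 24.5 to 32.0 in HPC7-8, with a mean of 24.96 ± 6.60 (SD, n = 7) and percentiles between 74.4 and 86.6. The element was weaker than the Gfi1b promoter in 7 of 7 libraries, by 1.73-fold on average (log10 difference -0.239 ± 0.0745 (SD), two-sided exact sign-flip permutation test, n = 7, adjusted p = 0.0156). It was weaker than the Gfi1 -35 kb element in 7 of 7 libraries as well, by 5.67-fold (log10 difference -0.754 ± 0.0902 (SD), same exact test, n = 7, adjusted p = 0.0156).

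The +13 kb window of Gfi1b held few called summits. A summit lay inside it in 1 library, HPC7-4, at 13978 bp, near the 14 kb edge, with a fold enrichment of 3.19. Between 13 and 15 kb downstream, 5 libraries held 7 peaks by their summits, with fold enrichments from 3.19 to 6.12. Peaks with their summit further downstream reached into the window in 3 more libraries. In HPC7-1 this was the +15.9 kb peak itself, called as 1 stretch of 2412 bp with a fold enrichment of 31.7, and in HPC7-5 and HPC7-8 it was a low peak at +14.8 kb with 5.39 and 6.12. The other 3 libraries had no peak in the window. Since most libraries gave no level of their own there, the +13 kb and +16/+17 kb windows are described side by side with no test.

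**Figure D2:**
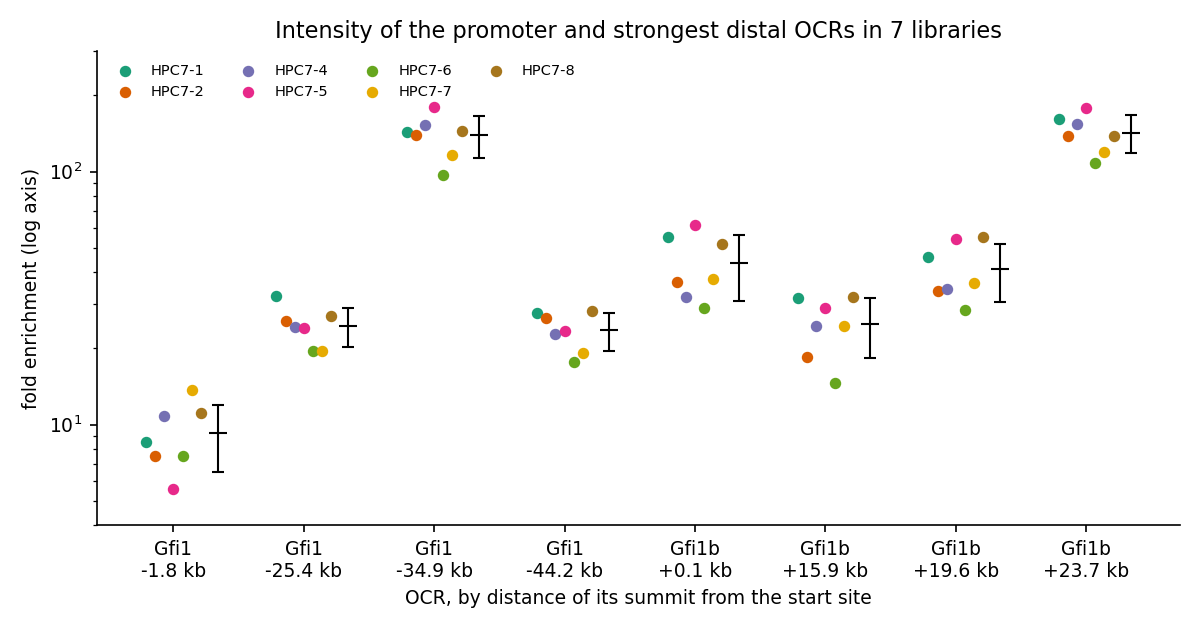
Fold enrichment (log axis) of the promoter OCRs and the strongest distal OCRs outside protein-coding promoters, by distance from the start site in kb, with 1 point per library and the mean with its SD (n = 7) to the right of the points. The Gfi1 promoter is the lowest site shown, with 5.57 to 13.7, and the OCRs at -34.9 kb and +23.7 kb cover a like range, 97.1 to 179 and 108 to 178.

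**Figure D3:**
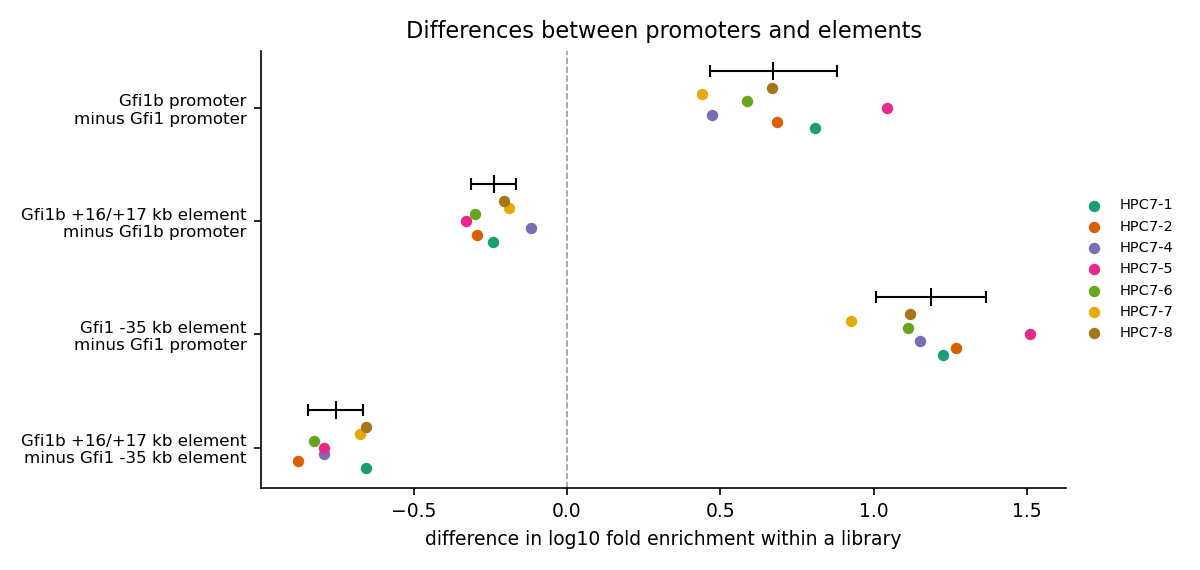
Differences in log10 fold enrichment between promoters and elements within each library, with 1 point per library and the mean with its SD (n = 7) above the points. All 7 points of each comparison lie on 1 side of 0.

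Between the +16/+17 kb element and the +23.7 kb OCR lay a further strong OCR at +19.6 kb (chr2:28601521-28603665), named here after its values were seen. It ranged from 28.3 to 55.2 with a median of 36.4 and was close to the Gfi1b promoter, above it in 2 libraries and below it in 5. Other intergenic OCRs found in all 7 libraries lay downstream at +30.2, +25.7 and +36.6 kb, with mean fold enrichments of 20.3, 13.01 and 9.29, and upstream at -11.3, -18.0 and -6.2 kb, with 15.1, 7.69 and 5.56. An OCR in a Gfi1b intron at +4.2 kb, with a mean of 13.5, reached to within 1 kb of an internal start of the gene at 6540 bp.

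Among the strong OCRs of the Gfi1b window were also promoters of its neighbours. The OCR at -19.2 kb (chr2:28640446-28642440) is the promoter of Tsc1, a gene of the mTOR pathway, and had a mean of 53.5 ± 11.5 (SD, n = 7) with a range from 43.3 to 76.2. The OCR at +38.8 kb (chr2:28582299-28583590) is a promoter of Gtf3c5, which encodes a subunit of a general factor of RNA polymerase III, and had a mean of 55.1 ± 12.6 (SD, n = 7) with a range from 42.9 to 76.9. These promoters and that of Gfi1b differed by less than the larger SD of each neighbouring pair. Within a library, the Tsc1 promoter was above that of Gfi1b in 5 of 7 libraries and the Gtf3c5 promoter in 6. OCRs in introns of Tsc1 at -32.5 kb and of Gtf3c5 at +43.8 kb had means of 8.94 and 11.99.

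The Gfi1b window held more peaks than the Gfi1 window in every library. There were 8 to 15 peaks per library around Gfi1, with a median of 11, and 19 to 25 around Gfi1b, with a median of 21. Per 100 kb of window this was 10.6 ± 2.29 and 19.2 ± 2.17 (SD, n = 7), a difference of 8.59 ± 2.08 in 7 of 7 libraries (two-sided exact sign-flip permutation test, n = 7, adjusted p = 0.0156). The OCRs at +4.2, +15.9 and +19.6 kb of Gfi1b were split into up to 3 peaks in some libraries, and with merged OCRs in place of peaks the difference was 5.67. Counted in peaks, the difference was 18.9 with 25 kb on either side of the genes and 12.7 with 100 kb. Of all OCRs, 8 lay upstream and 8 downstream of the start of Gfi1, and 7 and 17 of that of Gfi1b. Of those found in all 7 libraries, these counts were 6 and 2 at Gfi1 and 5 and 10 at Gfi1b. The downstream side of a window includes most or all of the gene body and is the longer one, and the positions were not tested. Of the 16 OCRs around Gfi1, 6 had their summit in Evi5, while 15 of the 24 around Gfi1b were intergenic at the summit.

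A peak in all 7 libraries was found at 8 of 16 OCRs around Gfi1 and at 15 of 24 around Gfi1b, that is 23 of 40 or 57.5%, where 46.2% of all merged OCRs had one. OCRs found in 1 library numbered 2 around Gfi1 and 4 around Gfi1b, 15% of the 40 against 17.9% of all merged OCRs. Of these 6, 5 came from HPC7-1, the library with the longest list, and merging the peaks of the other 6 libraries anew gave 15 and 22 OCRs. At Gfi1b, stretches joined only by HPC7-1 peaks then counted as separate OCRs. With the same number of peaks taken from each library, there were 13 OCRs around Gfi1 and 17 around Gfi1b. The 17 OCRs missing from at least 1 library had, where called, fold enrichments between 1.78 and 7.83 and percentiles of at most 60.2. They lay at -43.3, -40.4, +12.5, +16.2, +23.3, +37.4, +39.8 and +42.8 kb of Gfi1, and at -8.1, -3.2, +9.4, +27.4, +28.9, +33.2, +51.2, +57.1 and +59.2 kb of Gfi1b. The mean percentile was at least 75, the top 25% of a library, at 3 OCRs of Gfi1 and 7 of Gfi1b, where 17.1% of all merged OCRs reached it. All 10 were found in all 7 libraries, as were 99.9% of all merged OCRs at that intensity.

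**Figure D4:**
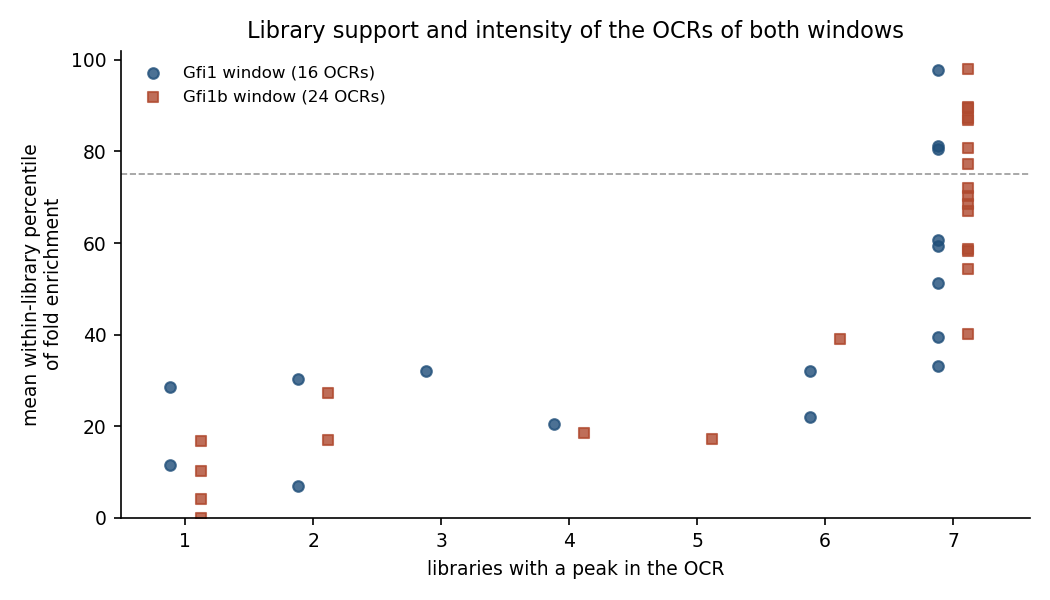
Mean within-library percentile of fold enrichment against the number of libraries with a peak, for the 16 OCRs of the Gfi1 window (circles) and the 24 of the Gfi1b window (squares), with a dashed line at the 75th percentile. The 3 and 7 OCRs above the line have a peak in all 7 libraries, and the highest OCR missing from a library has a mean percentile of 39.0.

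Against the rest of the genome, the strongest distal OCR of each gene ranked high. Both promoters ranked low among the promoters with a peak in all 7 libraries. Of 52076 OCRs found in all 7 libraries outside protein-coding promoters, 320 had a higher mean fold enrichment than the -34.9 kb OCR of Gfi1 and 286 a higher one than the +23.7 kb OCR of Gfi1b, so that each was stronger than 99.4% of them. The +23.7 kb OCR was wider than 99.3% of them and the -34.9 kb OCR wider than 79.1%. The +15.9, -25.4 and -44.2 kb OCRs were stronger than 83.0%, 82.8% and 81.8%, and the +5.0 kb OCR of Gfi1 stronger than 48.9%. As the strongest of a window has an advantage over a single OCR, the strongest OCR outside promoters was also compared among the windows of all protein-coding genes, where it was weaker in 97.2% of 21938 genes than at Gfi1 and in 97.4% than at Gfi1b. A promoter peak in all 7 libraries was found at 11775 of 21938 protein-coding genes, 53.7%, with a median fold enrichment of 79.9. The Gfi1 promoter was stronger than 6.09% of these and the Gfi1b promoter stronger than 23.6%. In OCRs per 100 kb of window, Gfi1 was above 65.3% of genes and Gfi1b above 83.9%.

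The promoters of the partners of the repressors were open. A peak in all 7 libraries was found at 10 of the 10 partner promoters reported here, a list from which 1 gene was left out, where 53.7% of all protein-coding promoters had one. The list held the demethylase Kdm1a, the CoREST genes Rcor1, Rcor2 and Rcor3, the deacetylases Hdac1 and Hdac2, Hmg20b, Phf21a, Gse1, and the histone methyltransferase Ehmt2. Mean fold enrichments ran from 30.6 ± 13.4 at Gse1 to 185 ± 34.4 at Rcor1 (SD, n = 7), with a median over the list of 84.9. Kdm1a, which both repressors recruit, had 48.8 ± 13.3, and Hdac1 134 ± 19.3. The Gfi1 promoter was below each of the 10 means, and the Gfi1b promoter below all but that of Gse1.

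The sequence around the summits was searched for the letters given above, in the 301 bp centred on the summit of the strongest library and on both strands, over the 8 OCRs of Gfi1 and the 15 of Gfi1b found in all 7 libraries. AGATAA occurred at 1 of 8 and 7 of 15, against 18.5% of all merged OCRs, and TGATAA, a form added after the sequences had been seen, at 5 of 8 and 5 of 15, against 13.6%. TGTGGT was found at 5 and 9, against 33.4%, AGGAAG at 6 and 6, against 48.3%, CAGNTG at 5 and 9, against 59.0%, and AATCAC at 2 and 2, against 11.0%. The GATA motif in its first form, the ETS motif, the RUNX motif and the E-box occurred together at 1 OCR, that at +25.7 kb of Gfi1b, and in 1.79% of all merged OCRs. Over the merged OCRs found in all 7 libraries, the shares in the same order were 19.3%, 13.4%, 33.1%, 50.2%, 58.1% and 10.6%. For the combination the share there was 2.23%. In the sequences printed above, counted from 1 at the 5′ end, the -34.9 kb OCR holds TGATAA at base 55 between TGTGGT at bases 28 and 80. The +23.7 kb OCR holds TGATAA in reverse complement at base 54, CAGNTG at base 68 and, in reverse complement, at base 182, and AATCAC at base 156. A match describes the letters and is not evidence of binding.

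The pattern of a promoter over the 7 libraries was compared among 11774 other promoters found in all of them, as log10 fold enrichment less the median promoter of the library. Closest to Gfi1 were Cst7, Sncaip and Zfp26, with Pearson r of 0.988, 0.985 and 0.983, and closest to Gfi1b were L3mbtl2, Tmem107 and Ciz1, with 0.987, 0.982 and 0.980. These are the highest of many values over 7 libraries that share depth and background, and they are given as a description.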

How the data were processed

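Bulk ATAC-seq of 7 HPC7 libraries was used. Per the methods of the authors, adapters were removed with Cutadapt, BWA-mem placed the reads on mm10, and MACS2 called the peaks of every library separately. Versions and options are not given in the sources used here. The deposited intensity is a fold enrichment, the ratio of a summit to its library's background. The deposited -log10 values are those of p and q, and the deposited score, which follows the -log10 q, was not used here. No normalization between libraries was applied here.

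The members and lists were chosen with earlier results of these data known. Peaks were merged at 1 bp overlap. A library's level at a promoter (1 kb on either side of any transcript start) or element was its highest fold enrichment among peaks with their summit inside, a reading settled after the peaks were seen. Where there was none, the lowest value of the list was taken. Fold enrichments were whole multiples of 1 step per library (100% within 0.02 of a step), and the Poisson tail of the recovered reads matched the -log10 p of the lists, the median error being 1.05e-05 or less. No transcript of either gene carries the annotation tag planned for choosing the start site, so the principal transcript with the lowest number was used. Paired differences were tested with exact sign-flip permutation over libraries (128 patterns), adjusted by Benjamini-Hochberg over 6 tests at a threshold of 0.05. The test of the +13 kb window is not reported, since setting libraries without a summit to the lowest value fixes its direction.

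The OCRs given in full were the promoters, those in the named elements and the 3 others of each window with the highest mean. The 3 most alike promoters per gene were named. A gene of the partner list and a gene of the marker list are not reported here and were left out of the counts. The alternatives tried were a minimum -log10 q of 5, equal numbers of peaks (84593), -log10 p or percentile as intensity, promoters of 250 bp or 3 kb, windows of 25 or 100 kb, 50% overlap, and each library left out. Depth enters as the reads at each summit, and precision as the SD over libraries, which come from separate cultures. The reference genome spelled out both start transcripts of GENCODE M21 exactly. Tools were samtools 1.23.1, pysam 0.24.0, Python 3.11.15, pandas 2.3.3, numpy 2.4.6, scipy 1.17.1 and matplotlib 3.10.9, and merging was tested on simulated data against bedtools 2.31.1.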

Additional observations from a re-analysis of the deposited data

Results flagged for a closer look

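The Tsc1 promoter OCR at -19.2 kb of Gfi1b stood at the 93.36 percentile in HPC7-1, apart from the other 6 libraries, of which the next reached 90.1. It was the 1 value of 30 compared that lay this far from its group by Dixon's criterion, which chance exceeds in about 1 of 20 groups. HPC7-1 had the longest list and the highest background, and their part in this value was not tested.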

How the results depend on the processing

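Of 125 values recomputed under alternatives, the test of the +13 kb window aside, 121 kept their direction and their side of the threshold, moved by less than the spread between libraries where there was no test, or stayed within 1.5 times the count. The other 4 were counts under other windows. With 25 kb on either side there were 8 OCRs around Gfi1, 5 of them shared by the 7 libraries, and with 100 kb there were 51 around Gfi1b, 29 of them shared. Adjusted p-values of the exact permutation tests lay between 0.0156 and 0.0312 over the alternatives that allow a test (n = 6 or 7), and 6 libraries cannot give less than 0.0312. With 1 library left out, the Gfi1b minus Gfi1 promoter difference lay between 0.611 and 0.711 (log10) and that of the -35 kb element and the Gfi1 promoter between 1.13 and 1.23. Within the libraries with the prefix VD and those with EtOH the promoter difference was 0.657 and 0.685, and the -35 kb element difference 1.21 and 1.17, with no test, since 3 and 4 libraries cannot give a p below 0.25 and 0.125. No paired analysis by replicate number was possible because there is 1 group, although each test is paired within a library. Chosen after the data were seen were the overlap reading, distances from the 5′ end of the gene, merged OCRs in place of peaks, and TGATAA. Sites with few reads limit the weak OCRs: a missing peak was not detectable at that depth and is not shown to be closed.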
